A study of Mus musculus with 7 samples.

Results

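The genes described here are 39 interferon and NF-kappaB inflammatory genes of the mouse, out of 55416 gene identifiers counted in hippocampal RNA. The rule that lists them uses known roles and no measured value, and it covers 3 interferon receptor chains, 7 STAT and IRF transcription factors, 15 interferon-induced effectors, 4 NF-kappaB subunits, 3 inhibitors and feedback genes, and 7 cytokines, chemokines and adhesion molecules. The hippocampi came from male outbred CD1 mice, described in the labels as age-matched with no age given. Control mice were untreated and gave 3 libraries (replicates 1, 2 and 3). DMSO-treated mice received the vehicle intraperitoneally, 2 times per week over 2 months, and gave 2 libraries (replicates 2 and 3). ONX-0914-treated mice received 10 mg/kg of ONX-0914 by the same route and schedule, and gave 2 libraries (replicates 1 and 2). ONX-0914 inhibits β5i, a catalytic subunit of the immunoproteasome, and all groups share the strain, the sex and the tissue. Nothing in the labels says that each library is a separate animal, so p-values measure only the spread between these libraries.

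Interferons bind receptors that activate JAK kinases, which phosphorylate STAT proteins, and STAT complexes with IRF9 switch on many antiviral genes through the interferon-stimulated response element (ISRE) or, for interferon gamma, the gamma-activated site (GAS). NF-kappaB dimers are held in the cytoplasm by inhibitors such as the product of Nfkbia, and once released they bind kappaB sites of cytokine, chemokine and adhesion genes, including those of their own inhibitors. In the healthy brain both pathways are kept low, and microglia, astrocytes and endothelium are their main responders.

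To show the letters these pathways read, the RefSeq promoters of the members were searched on both strands for an ISRE core (GAAANNGAAA), a kappaB core (GGGNNTTNCC) and a GAS core (TTCNNNGAA), where N is any base. Each window runs from 250 bases before to 50 bases after the annotated start on GRCm38.p6, and 32 of the 39 members have such a window (not Ccl2, Ifi27, Nfkb1, Nlrc5, Relb, Usp18 and Vcam1). The ISRE core occurred in 10 of these 32 members (31.2%) and in 3.99% of the 27025 genes with a promoter. Of the 12 effectors with a window, 8 held it. A match is a description of these letters, not a binding site, and interferon-induced genes were chosen as members. The matches nearest the start of each gene are shown with 10 bases on either side, written along the strand of the gene, with the core in capitals. A match on the opposite strand reads TTTCNNTTTC, and overlapping matches occur in Gbp3, Isg15 and Bst2.
Stat2, chr10:128270266-128270295, plus strand: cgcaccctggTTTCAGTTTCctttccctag
Isg15, chr4:156200865-156200894, minus strand: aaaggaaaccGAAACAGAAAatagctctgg
Ifit1, chr19:34640794-34640823, plus strand: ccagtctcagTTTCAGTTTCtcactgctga
Ifit3, chr19:34583397-34583426, plus strand: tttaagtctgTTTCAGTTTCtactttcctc
Rsad2, chr12:26456553-26456582, minus strand: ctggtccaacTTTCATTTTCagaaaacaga
Bst2, chr8:71537577-71537606, minus strand: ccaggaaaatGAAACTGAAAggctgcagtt
Gbp2, chr3:142620594-142620623, plus strand: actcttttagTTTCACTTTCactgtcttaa
Gbp3, chr3:142559995-142560024, plus strand: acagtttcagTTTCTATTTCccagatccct
Gbp7, chr3:142530273-142530302, plus strand: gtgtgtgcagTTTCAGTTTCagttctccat
Cxcl10, chr5:92349083-92349112, minus strand: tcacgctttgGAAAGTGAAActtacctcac

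The kappaB core occurred in 6 of the 32 members (18.8%) and in 5.48% of all genes. These 6 were Nfkbia, Tnfaip3, Nfkb2, Il6, Cxcl10 and Ifit1, and matches overlap in Nfkb2. The windows of the inhibitor genes Nfkbia and Tnfaip3, the subunit gene Nfkb2 and the cytokine genes Il6 and Cxcl10 are shown as examples of both ends of the pathway, where a match on the opposite strand reads GGNAANNCCC.
Nfkbia, chr12:55492657-55492686, minus strand: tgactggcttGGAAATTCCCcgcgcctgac
Tnfaip3, chr10:19015403-19015432, minus strand: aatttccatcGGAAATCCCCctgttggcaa
Nfkb2, chr19:46304717-46304746, plus strand: gggccgaaagGGGCTTTCCCggctggagcc
Il6, chr5:30013060-30013089, plus strand: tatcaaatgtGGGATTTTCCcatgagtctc
Cxcl10, chr5:92348973-92349002, minus strand: cggtttacagGGGACTTCCCtcgggttgcg

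The GAS core, which reads the same on both strands, occurred in 11 of the 32 members (34.4%) and in 9.55% of all genes: Ifnar1, Ifnar2, Irf1, Irf8, Ifit2, Ifi35, Bst2, Gbp7, Nfkb2, Socs3 and Icam1. The 250 bases before the start are shown in full for Irf7, Gbp7 and Ifit1, the members with the lowest unadjusted p-values between ONX-0914-treated and control mice. On GRCm38.p6 they lie at chr7:141266425-141266674 (minus strand) for Irf7, chr3:142530086-142530335 (plus strand) for Gbp7 and chr19:34640639-34640888 (plus strand) for Ifit1. Capitals mark every ISRE, kappaB or GAS core. Gbp7 held 1 ISRE and 2 GAS cores, Ifit1 held 2 ISRE cores and 1 kappaB core, and the letters of none of the 3 motifs occurred in the Irf7 window.
Irf7: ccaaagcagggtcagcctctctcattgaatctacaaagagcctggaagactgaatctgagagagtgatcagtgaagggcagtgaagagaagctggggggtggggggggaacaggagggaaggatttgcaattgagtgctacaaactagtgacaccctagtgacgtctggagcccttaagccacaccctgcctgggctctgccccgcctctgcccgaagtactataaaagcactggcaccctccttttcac
Gbp7: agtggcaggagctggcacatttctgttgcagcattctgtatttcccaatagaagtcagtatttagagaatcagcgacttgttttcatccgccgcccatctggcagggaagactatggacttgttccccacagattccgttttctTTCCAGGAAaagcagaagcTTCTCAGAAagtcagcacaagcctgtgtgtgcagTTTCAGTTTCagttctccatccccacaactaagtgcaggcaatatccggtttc
Ifit1: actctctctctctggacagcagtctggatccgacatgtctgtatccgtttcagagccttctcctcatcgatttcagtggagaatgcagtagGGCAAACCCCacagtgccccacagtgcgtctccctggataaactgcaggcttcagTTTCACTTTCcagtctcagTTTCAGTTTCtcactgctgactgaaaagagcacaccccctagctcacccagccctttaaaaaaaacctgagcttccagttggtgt

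Levels are given as CPM, that is counts relative to a library total scaled by TMM. The total count on genes was 2842675 to 3877006 in 6 libraries and 13782270 in ONX-0914 replicate 2. A count of 0 therefore allowed up to 0.755 to 1.07 CPM in 6 libraries and up to 0.198 CPM in ONX-0914 replicate 2, taking 3 counts as the limit. These limits cover counting error only. The members held 1009 to 1689 counts in 6 libraries and 5790 in ONX-0914 replicate 2, and 21 of the 39 had at least 10 counts in every library.

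The 2 ONX-0914 libraries stood apart from the others and from each other. Mitochondrial transcripts made up 3.71% of reads on genes in replicate 2, beside 0.818% to 1.59% in every other library, and the highest 10 genes of each library held 6.62% there against 4.09% to 4.37%. Reads outside annotated genes were 6.49% and 6.39% of the ONX-0914 libraries, above the 4.75% to 5.59% of the control and DMSO libraries. Summed CPM of 8 hippocampal neuron markers (led by Nptx1 and Neurod6) was 588 in ONX-0914 replicate 1 and 1382 in replicate 2, against 2520 to 2611 in control and 2561 to 2664 in DMSO libraries. Of these 8 genes, 5 lay below all controls in both ONX-0914 libraries. In replicate 2, Wfs1 (190.5 CPM against 98.0 to 126.5 in control) and Bok (55.6 against 44.3 to 46.7) lay above all controls. The sum of 12 thalamus and striatum markers (led by Ppp1r1b and Rora) reached 2051 in ONX-0914 replicate 1 but 233.7 to 297.5 elsewhere. Blood markers (Hbb-bs and Hba-a1) summed to 96.4 and 837 in the ONX-0914 libraries and 30.02 to 46.4 elsewhere. All 8 endothelial markers (led by Flt1 and Cldn5) lay above all controls in both ONX-0914 libraries, with sums of 290.4 and 303.1 against 165 to 184 in control and 171 and 222 in DMSO libraries. Microglial markers (Cx3cr1 and Ctss) summed to 491 and 636 against 381 to 437 in control and 449 and 523 in DMSO libraries. Of these 12 genes, 5 lay above all controls in both ONX-0914 libraries and 0 below. Some lay below all controls in 1 of them. In replicate 2 these were Cx3cr1 (72.7 CPM against 84.0 to 88.1), Tmem119 (37.2 against 45.7 to 48.0) and Itgam (7.47 against 13.8 to 19.4). P2ry12 did so in replicate 1 (10.1 against 11.3 to 16.4). Mural and fibroblast markers (Rgs5 and Pdgfrb) summed to 115 and 120 against 80.2 to 98.2 in the other libraries. Astrocyte markers (Slc1a2 and Aldoc) summed to 5897 and 5418 against 6207 to 6605 in the other 5 libraries. Of these 8 genes, only 1 lay below all controls in both ONX-0914 libraries, and 0 lay above. Aldoc lay above all controls in replicate 1 (1606 CPM against 1092 to 1209), as did Slc1a2 in replicate 2 (3124 against 2856 to 3089). Oligodendrocyte markers (Mbp and Mobp) summed to 9839 and 4440 against 5007 to 9192 in the other 5 libraries. Choroid plexus markers (Ttr and Kl) summed to 70.5 and 197.1 against 43.0 to 192.9. Neutrophil and monocyte markers (S100a9 and S100a8) summed to 4.03 and 20.1 against 0.268 to 2.48, and lymphocyte markers (Cd4 and Cd79a) to 4.28 and 0.859 against 0 to 1.79, with Cd3e, Cd3d, Cd8a, Ms4a1 and Nkg7 at or under 3 counts in every library. The part of these shifts in the values of the members was not tested, and in bulk tissue fewer cells of a type and less RNA per cell cannot be told apart.

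**Figure D1:**
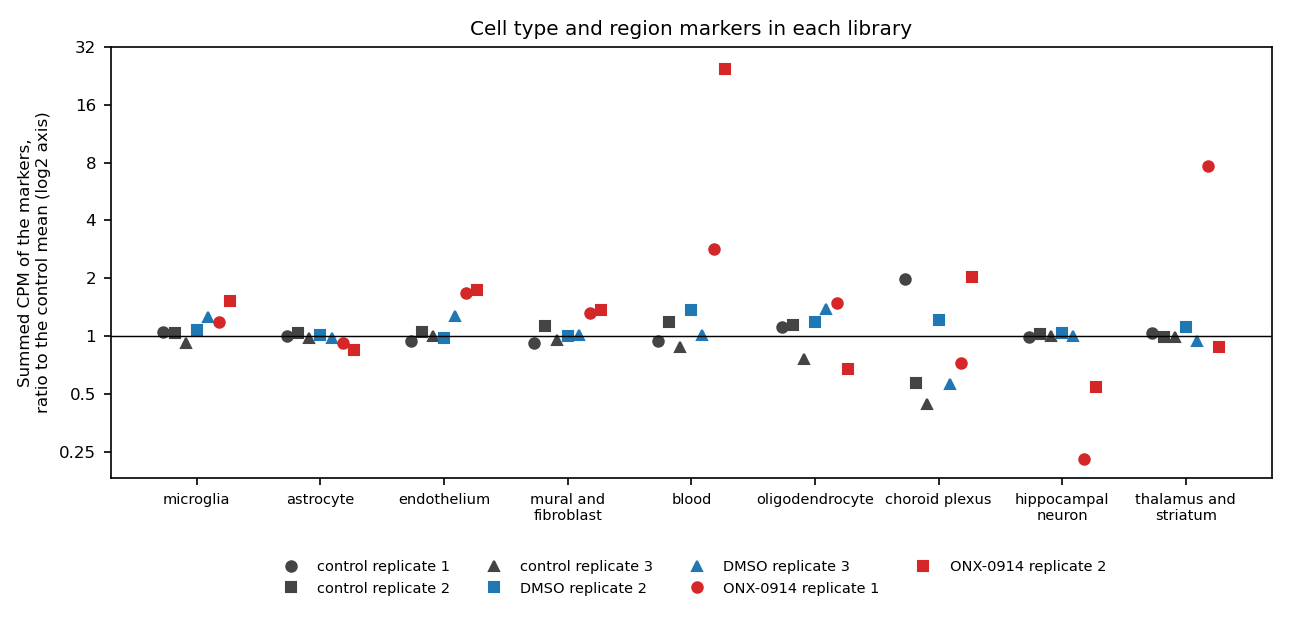
Summed CPM of the markers of each cell type or region, as a ratio to the mean of the 3 control libraries (log2 axis), with 1 symbol per library. The ONX-0914 libraries lie below the others for hippocampal neurons and above them for endothelium and blood, and only ONX-0914 replicate 1 lies above the others for thalamus and striatum.

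In control hippocampus the members covered a wide range of levels. Compared per length, as CPM per kb of annotated exon, Ifi27 was highest at 25.1 (22.0 to 27.2 in the 3 control libraries), followed by Nfkbia at 9.90 (7.01 to 12.2), Ifngr1 at 7.09 (6.22 to 7.89), Stat3 at 5.86 (5.84 to 5.90) and Rela at 5.20 (4.08 to 6.15). Ifi27 lay above every other member in every control library, whereas Nfkbia and Ifngr1 overlapped, as did Stat3 and Rela. Ifnar2, Bst2, Ifnar1, Ifit2, Stat2 and Vcam1 came next at 4.55 to 3.28, each overlapping its neighbour in this order. At the other end Gbp7 held 0.311, Usp18 0.226 and Irf7 0.177 CPM per kb. Ccl2, Tnf and Cxcl10 had no read in any control library, and Il6, Il1b and Nlrc5 had 1 or 2 reads in a single control library.

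**Figure D2:**
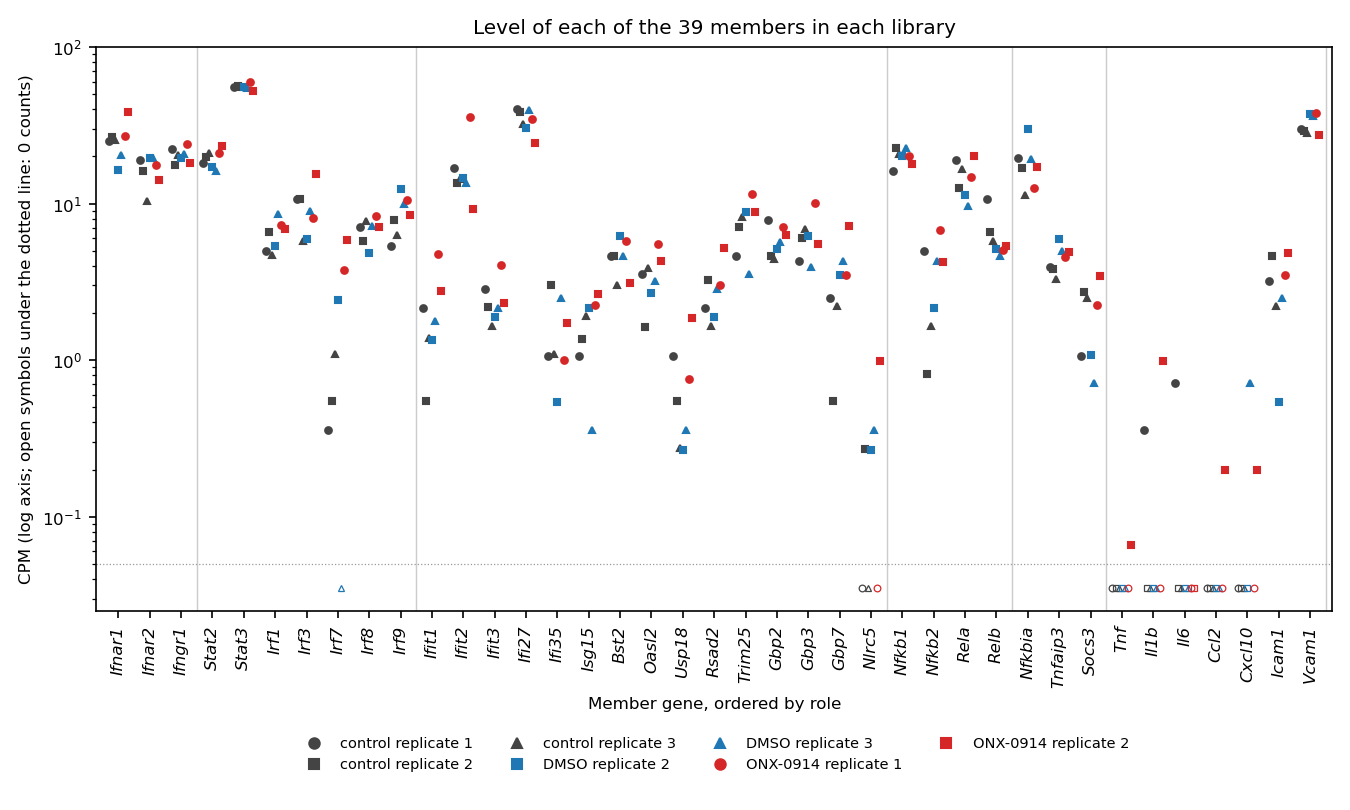
CPM of each of the 39 members in each of the 7 libraries (log axis), ordered by role from receptors on the left to cytokines and adhesion molecules on the right. Open symbols under the dotted line stand for 0 counts. Most members overlap between groups, and Irf7, Ifit1, Gbp7 and Usp18 lie mostly under 5 CPM.

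A total of 30 members passed edgeR's filter on low counts and were tested among 13152 genes. Irf7 and Ifit1 passed although none of the 5 libraries without ONX-0914 reached the cutoff, and Ifit3 and Socs3 passed with 1 such library, so counts over the tested members lean toward genes high in the ONX-0914 libraries. The 9 members not tested were Ifi35, Isg15, Usp18, Nlrc5, Il1b, Tnf, Il6, Ccl2 and Cxcl10. Between ONX-0914-treated and control mice, edgeR's quasi-likelihood test called no member at an FDR under 0.05, the threshold that 0.114% of all genes passed. At an unadjusted p under 0.05 it found 3 members, all higher (Irf7, Gbp7 and Ifit1), that is 3 of 30 against 18.6% of all genes. DESeq2 and limma voom called no member either and found 2 and 3 at that unadjusted p, but DESeq2 gave no FDR for Irf7 and Ifit1. Of the 30 tested members, 26 had a positive Log2FC with a median of 0.36, beside 53.8% positive and a median of 0.05 over all genes. Leaving out the 4 members that passed through the ONX-0914 libraries gave 22 of 26 positive and a median of 0.30, and the 21 members with at least 10 counts in every library gave 17 positive and a median of 0.18 (all genes 0.04). In 9 members both ONX-0914 libraries lay above all 3 controls (Ifnar1, Irf1, Irf7, Irf9, Ifit1, Oasl2, Trim25, Gbp7 and Tnfaip3), as in 16.9% of all genes, and in Relb both lay below, as in 16.3% of all genes. The 95% interval stayed within a 2-fold change in either direction for 12 of the 30 members and for 6328 of the 13152 genes, and it included a 2-fold increase for 17 members and a 2-fold decrease for 1, beside 4331 and 3015 of all genes.

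Across all genes the Log2FC varied with level. Genes tested with a mean under 5 CPM had a median Log2FC of 0.28 for ONX-0914 against control, those from 5 to 10 CPM 0.29, those from 10 to 20 CPM 0.20 and those over 20 CPM -0.06. The share of positive values in these ranges was 64.2%, 69.4%, 66.4% and 43.9%. The members in the same ranges had medians of 0.67 (11 members, all positive), 0.37 (8 members, 7 positive), 0.11 (6 members, 4 positive) and 0.05 (5 members, 4 positive). The members were thus above the median of their range under 10 CPM and over 20 CPM and below it from 10 to 20 CPM. Those under 5 CPM include Irf7, Ifit1, Ifit3 and Socs3, which passed the filter through the ONX-0914 libraries.

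**Figure D3:**
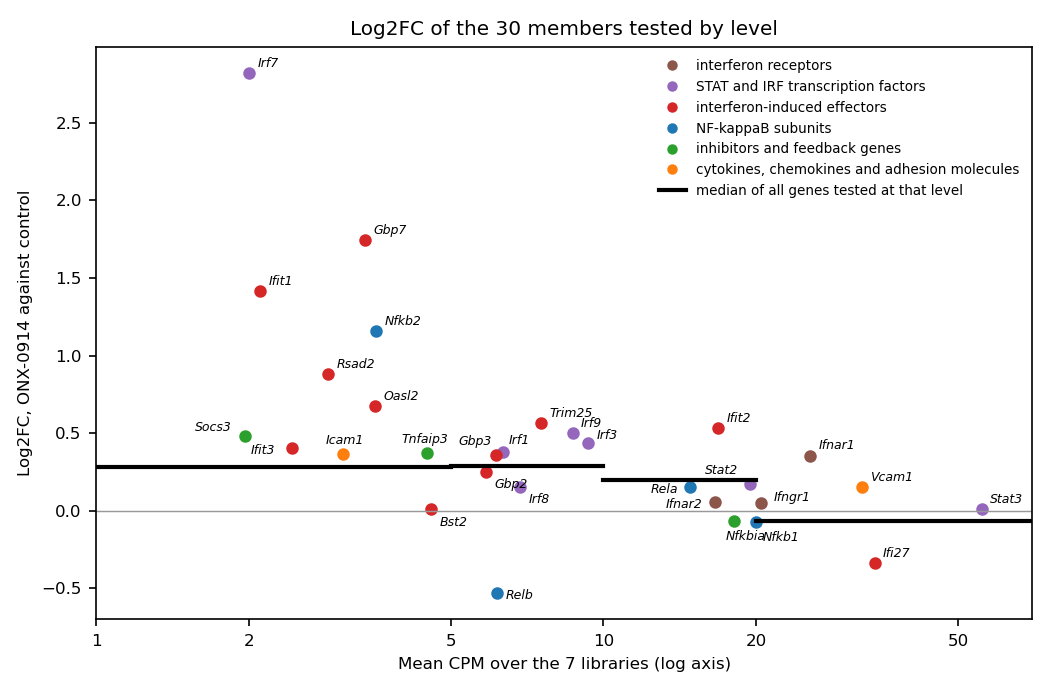
Log2FC of ONX-0914 against control for the 30 members tested (points, coloured by role) against their mean CPM over the 7 libraries (log axis). Black bars mark the median of all genes tested in each range of level. Irf7, Gbp7, Ifit1, Nfkb2, Rsad2 and Oasl2, all under 5 CPM, lie above the bar of their range, and Bst2, Relb and Ifi27 lie below it.

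Among the receptors, Ifnar1 and Ifnar2 encode the chains of the type I interferon receptor and Ifngr1 the ligand-binding chain of the interferon gamma receptor. Ifnar1 (ENSMUSG00000022967) had 25.0, 26.4 and 25.6 CPM in control replicates 1 to 3. It had 16.4 and 20.4 in the DMSO libraries (replicates 2, then 3), and 26.9 and 38.2 in the ONX-0914 libraries (replicates 1, then 2), the order kept for every gene here. The groups did not overlap, with DMSO lowest and ONX-0914 highest, although ONX-0914 replicate 1 lay close to the controls. Between ONX-0914 and DMSO its Log2FC was 0.84 with an SE of 0.25 (unadjusted p = 0.00877, edgeR FDR = 0.219), and it was 0.57 without ONX-0914 replicate 2. Ifnar2 had 10.5 to 18.9 CPM in control, 19.6 and 19.6 in DMSO and 17.6 and 14.1 in ONX-0914 libraries, with the DMSO libraries highest. Ifngr1 held 17.7 to 22.5 CPM in control, 19.6 and 20.7 in DMSO and 23.9 and 18.2 in ONX-0914 libraries, and its interval between ONX-0914 and control ran from 0.73- to 1.47-fold.

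The STAT and IRF factors included Stat2 and Irf9, partners in the complex that binds the ISRE, Stat3, which carries the IL-6 signal, Irf3, the factor that starts interferon production, and Irf7, itself interferon-induced and the amplifier of that production. Irf7 (ENSMUSG00000025498) had 0.357, 0.545 and 1.10 CPM in control, 2.42 and 0 in DMSO and 3.78 and 5.82 in ONX-0914 libraries. In reads these values were 1, 2 and 4, then 9 and 0, then 15 and 88. Both ONX-0914 libraries lay above the other 5, and the DMSO libraries fell on either side of the controls. The Log2FC against control was 2.82 with an SE of 0.76 (unadjusted p = 0.00458, edgeR FDR = 0.133), and against DMSO it was 1.88 with an SE of 0.77 (unadjusted p = 0.036, FDR = 0.309). Against DMSO it was 1.04 without DMSO replicate 3, and 7.74 without DMSO replicate 2, where the remaining DMSO library has 0 counts and the value depends on the prior count. Irf7 shares 45 bases of annotated exon with Phrf1 on the opposite strand.

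Irf9 (ENSMUSG00000002325) had 5.35, 7.91 and 6.33 CPM in control, 12.3 and 9.99 in DMSO and 10.6 and 8.39 in ONX-0914 libraries. All 4 libraries of injected mice lay above all controls, and the DMSO and ONX-0914 libraries overlapped. Between DMSO and control its Log2FC was 0.77 with an SE of 0.30 (unadjusted p = 0.0333, edgeR FDR = 1), and against control it was 0.50 for ONX-0914 (FDR = 0.375). Irf9 shares 123 bases of annotated exon with Rnf31 on the same strand, where reads cannot be assigned to either gene. Stat3, the most abundant factor, was the steadiest member, with 55.6 to 56.2 CPM in control, 55.5 and 54.6 in DMSO and 60.2 and 52.5 in ONX-0914 libraries. Its interval between ONX-0914 and control ran from 0.78- to 1.30-fold. Stat2 had 18.2 to 20.9 CPM in control, 17.2 and 16.1 in DMSO and 20.9 and 23.3 in ONX-0914 libraries, with the DMSO group below all others. Irf1, a first-wave factor of the interferon gamma response, had 4.68 to 6.54 CPM in control and 7.30 and 6.87 in ONX-0914 libraries, and the DMSO libraries at 5.37 and 8.57 spanned the ONX-0914 values. Irf3 had 5.78 to 10.7 CPM in control, 5.90 and 8.92 in DMSO and 8.05 and 15.4 in ONX-0914 libraries, and the microglial factor Irf8 had 5.73 to 7.71, 4.83 and 7.14, and 8.31 and 7.14 CPM, so that both overlapped between all groups.

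The effectors are the antiviral genes that interferon switches on. Ifit1, Ifit2 and Ifit3 bind foreign RNA or its partners, and the guanylate-binding proteins Gbp2, Gbp3 and Gbp7 attack intracellular pathogens. Gbp7 (ENSMUSG00000040253) had 2.50, 0.545 and 2.20 CPM in control, 3.49 and 4.28 in DMSO and 3.52 and 7.20 in ONX-0914 libraries. All libraries of injected mice lay above all controls, and ONX-0914 replicate 1 lay within the range of the DMSO libraries. The Log2FC against control was 1.75 with an SE of 0.55 (unadjusted p = 0.0128, edgeR FDR = 0.172), and it was 1.05 without ONX-0914 replicate 2. Against DMSO it was 0.57 (edgeR FDR = 0.613). Gbp7 shares 637 exon bases with Gm43802 on the same strand. Gbp2 had 4.41 to 7.84 CPM in control and 7.05 and 6.28 in ONX-0914 libraries, and Gbp3 had 4.28 to 6.88 and 10.1 and 5.55, both overlapping. The promoters of all 3 Gbp members hold the ISRE core. The files list no multi-mapping reads, and how reads from near-identical copies of this family were treated is not known.

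Ifit1 (ENSMUSG00000034459) had 2.14, 0.545 and 1.38 CPM in control, 1.34 and 1.79 in DMSO and 4.78 and 2.78 in ONX-0914 libraries. Both ONX-0914 libraries lay above the other 5, from 19 and 42 reads against 2 to 6. The Log2FC against control was 1.42 with an SE of 0.58 (unadjusted p = 0.0388, edgeR FDR = 0.243), and it was 1.04 without control replicate 2. Ifit2 (ENSMUSG00000045932) went in opposite directions in the ONX-0914 libraries, with 35.7 CPM in replicate 1 and 9.19 in replicate 2 against 13.6 to 16.8 in the other 5 libraries. Its Log2FC against control was 0.53 over both libraries, 1.27 without ONX-0914 replicate 2 and -0.70 without ONX-0914 replicate 1. Ifit3 had 1.65 to 2.85 CPM in control, 1.88 and 2.14 in DMSO and 4.03 and 2.31 in ONX-0914 libraries, and its close copy Ifit3b makes this count uncertain. All 3 Ifit genes were higher in ONX-0914 replicate 1 than in every control and DMSO library, and only Ifit1 was so in replicate 2.

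Oasl2, an OAS-like protein, had 1.64 to 3.86 CPM in control, 2.68 and 3.21 in DMSO and 5.54 and 4.30 in ONX-0914 libraries, with ONX-0914 above the other 5. Rsad2, which encodes the antiviral enzyme viperin, had 1.65 to 3.27 CPM in control, 1.88 and 2.86 in DMSO and 3.02 and 5.22 in ONX-0914 libraries, with replicate 1 inside the control range. Trim25, a ubiquitin ligase that activates RIG-I, had 4.64 to 8.26 CPM in control, 8.85 and 3.57 in DMSO and 11.6 and 8.79 in ONX-0914 libraries. Ifi27, a mitochondrial interferon-induced protein and the highest effector, had 32.2 to 39.9 CPM in control, 30.6 and 39.6 in DMSO and 34.7 and 24.2 in ONX-0914 libraries, and was the only tested effector with a negative Log2FC against control (-0.34, edgeR FDR = 0.453). Bst2, which tethers budding virus to the cell surface, had 3.03 to 4.64 CPM in control, 6.17 and 4.64 in DMSO and 5.79 and 3.11 in ONX-0914 libraries. Of the 11 effectors tested, 10 were positive with a median Log2FC of 0.53, and the 7 with an ISRE core had a median of 0.41 while Ifit2, Oasl2 and Trim25, without that core in the window, had 0.53 to 0.67.

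The effectors not tested were close to the limit of detection. Isg15, the ubiquitin-like modifier, had 1.07, 1.36 and 1.93 CPM in control, 2.15 and 0.357 in DMSO and 2.27 and 2.64 in ONX-0914 libraries, from 1 to 9 reads in 6 libraries and 40 in ONX-0914 replicate 2. Usp18, which removes that modifier and dampens the receptor, had 0.275 to 1.07, 0.268 and 0.357, and 0.755 and 1.85 CPM. Both ONX-0914 values of Isg15 lay above the other 5 libraries, and those of Usp18 did not. Ifi35 had 1.07 to 2.999 CPM in control, 0.537 and 2.50 in DMSO and 1.01 and 1.72 in ONX-0914 libraries. Nlrc5, the activator of MHC class I genes, had at most 1 read in 6 libraries and 15 reads (0.991 CPM) in ONX-0914 replicate 2. In the other 6, a count of 0 allows a level of up to 0.755 to 1.07 CPM.

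**Figure D4:**
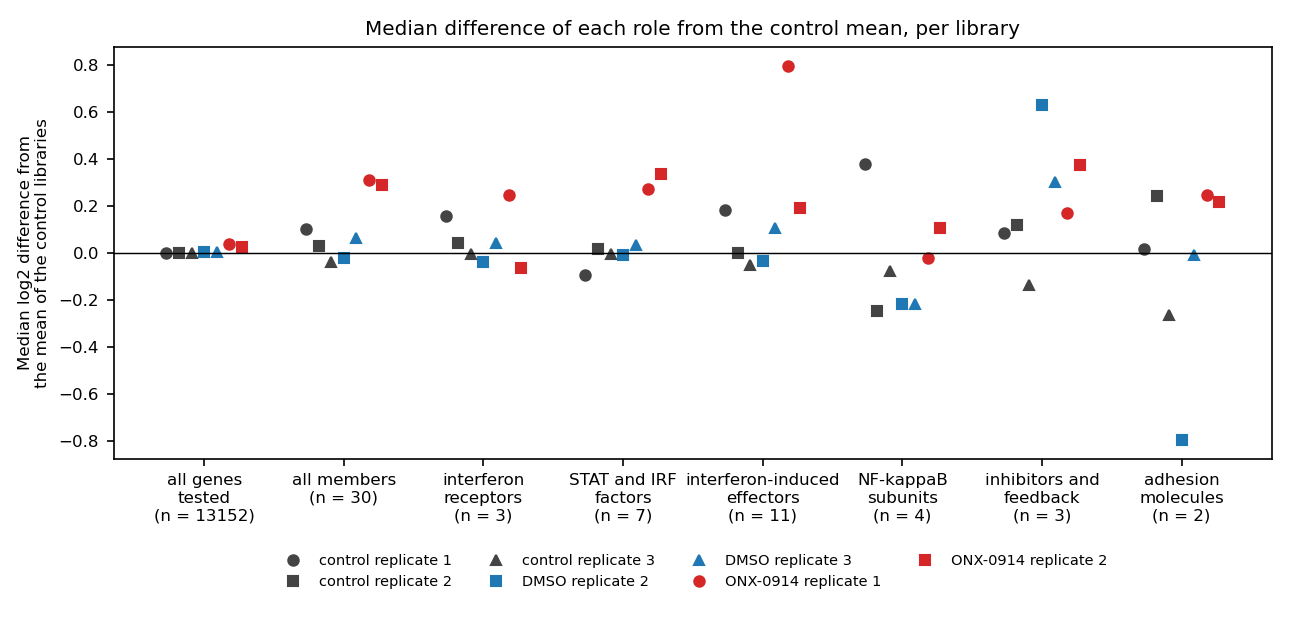
Median over the tested members of each role of the log2 difference in CPM from the mean of the control libraries, with 1 symbol per library. The ONX-0914 libraries lie above the controls for all members and for the STAT and IRF factors, while for the effectors replicate 1 reaches 0.799 and replicate 2 stays at 0.193, next to control replicate 1 at 0.185.

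Per library, the median of the 30 members differed from the control mean by 0.31 in ONX-0914 replicate 1 and 0.29 in replicate 2 on the log2 scale, beside -0.02 and 0.07 in the DMSO libraries and 0.04 and 0.03 over all genes in the ONX-0914 libraries. In ONX-0914 replicate 1, 18 members lay above all controls and 1 below, and in replicate 2, 15 lay above and 5 below, out of 30. Over all genes the shares above and below were 36.8% and 32.3% in replicate 1 and 40% and 38.8% in replicate 2. The effectors differed between the ONX-0914 libraries, at 0.80 in replicate 1 and 0.19 in replicate 2, while the STAT and IRF factors were at 0.27 and 0.34. The median absolute log2 difference between the ONX-0914 libraries was 0.43 over the members and 0.57 over all genes, against 0.30 and 0.21 between the DMSO libraries.

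The NF-kappaB subunits were Nfkb1 and Nfkb2, whose products are processed by the proteasome to p50 and p52, Rela of the canonical and Relb of the non-canonical pathway. Rela (ENSMUSG00000024927) had 18.9, 12.5 and 16.5 CPM in control, 11.3 and 9.64 in DMSO and 14.9 and 20.2 in ONX-0914 libraries. The DMSO libraries lay below all others, and the ONX-0914 libraries overlapped the controls. Its Log2FC between ONX-0914 and DMSO was 0.76 with an SE of 0.30 (unadjusted p = 0.0345, edgeR FDR = 0.303), was 0.49 without ONX-0914 replicate 2, and was 0.16 against control (FDR = 0.762). Relb had 10.7, 6.54 and 5.78 CPM in control, 5.10 and 4.64 in DMSO and 5.03 and 5.35 in ONX-0914 libraries, so that all 4 libraries of injected mice lay below all controls. Its Log2FC against control was -0.63 for DMSO (edgeR FDR = 1) and -0.53 for ONX-0914 (FDR = 0.42). When library totals were used without TMM, the ONX-0914 libraries no longer lay below all controls. Nfkb2 ranged from 0.818 to 4.99 CPM in control and overlapped in all groups, with 2.15 and 4.28 in DMSO and 6.80 and 4.23 in ONX-0914 libraries. Nfkb1 had 16.04 to 22.6 CPM in control, 20.1 and 22.5 in DMSO and 20.1 and 17.8 in ONX-0914 libraries, with an interval of 0.67- to 1.36-fold between ONX-0914 and control.

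The inhibitors and feedback genes did not share a direction. Nfkbia, which encodes IκBα, had 19.6, 16.9 and 11.3 CPM in control, 29.8 and 19.3 in DMSO and 12.6 and 17.2 in ONX-0914 libraries, with DMSO replicate 2 highest. Tnfaip3, which encodes the deubiquitinase A20, had 3.31 to 3.92 CPM in control, 5.90 and 4.998 in DMSO and 4.53 and 4.89 in ONX-0914 libraries, so that all libraries of injected mice lay above all controls, the DMSO libraries highest. Both of these genes carry a kappaB core close to their start. Socs3 (ENSMUSG00000053113), the feedback inhibitor of STAT3 signalling, had 1.07, 2.73 and 2.48 CPM in control, 1.07 and 0.714 in DMSO and 2.27 and 3.44 in ONX-0914 libraries. The ONX-0914 libraries lay above the DMSO libraries and overlapped the controls. Its Log2FC between ONX-0914 and DMSO was 1.70 with an SE of 0.67 (unadjusted p = 0.032, edgeR FDR = 0.298), from 4 and 2 reads in the DMSO libraries.

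Of the cytokines, chemokines and adhesion molecules, only the endothelial adhesion genes Icam1 and Vcam1 were tested. Icam1 (ENSMUSG00000037405) had 3.21, 4.64 and 2.20 CPM in control, 0.537 and 2.50 in DMSO and 3.52 and 4.82 in ONX-0914 libraries. The ONX-0914 libraries lay above the DMSO libraries and overlapped the controls. Its Log2FC between ONX-0914 and DMSO was 1.61 with an SE of 0.67 (unadjusted p = 0.0399, edgeR FDR = 0.323). It was 0.78 without DMSO replicate 2, which has 2 reads, and 2.95 without DMSO replicate 3. Icam1 shares 511 exon bases with Gm47079 on the opposite strand. Vcam1 had 28.1 to 29.95 CPM in control, 37.6 and 36.0 in DMSO and 38.0 and 27.2 in ONX-0914 libraries, with an interval between ONX-0914 and control of 0.81- to 1.53-fold. The endothelial marker sum given above moved with ONX-0914 in both libraries, and its part in the values of Icam1 was not tested.

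The inducible cytokines and chemokines were at or near 0. Tnf had 1 read in ONX-0914 replicate 2 and none elsewhere, and Il6 had 2 reads in control replicate 1 and none elsewhere. Ccl2 had 3 reads in ONX-0914 replicate 2 alone, and Cxcl10 had 2 reads in DMSO replicate 3 and 3 in ONX-0914 replicate 2. None of these 4 genes exceeded 3 reads in any library, so differences between groups were not detectable at this depth. Il1b had 1 read in control replicate 1, none in the other control, DMSO and ONX-0914 replicate 1 libraries, and 15 reads (0.991 CPM) in ONX-0914 replicate 2. In that library the neutrophil genes S100a8 and S100a9 had 84 and 122 reads against at most 2 in any other library, and blood markers were at 837 CPM. Their part in the Il1b reads was not tested.

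Between DMSO-treated and control mice, which share the control libraries with the comparison above, no member passed an FDR under 0.05 in edgeR, as did 0.0152% of all genes, and DESeq2 and limma voom called none. Irf9 was the 1 member at an unadjusted p under 0.05, against 2.65% of all genes, and DESeq2 found 0 and limma voom 1. Of the 30 members tested, 12 were positive and 18 negative, with a median Log2FC of -0.03. Over all genes 49.5% were positive and the median was 0.00. Both DMSO libraries lay above all controls for 6 members (Ifnar2, Irf9, Bst2, Gbp7, Tnfaip3 and Vcam1), as in 15.7% of all genes, and below for 5 (Ifnar1, Stat2, Stat3, Rela and Relb), as in 15% of all genes. The interval stayed within 2-fold for 8 of the 30 members and for 7809 of the 13152 genes.

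When ONX-0914-treated mice were set against DMSO-treated mice, edgeR called no member at an FDR under 0.05, as did 0.0456% of all genes, and DESeq2 and limma voom called none. At an unadjusted p under 0.05 edgeR found Ifnar1, Irf7, Rela, Socs3 and Icam1, all higher, against 14.7% of all genes, while DESeq2 found 1 member and limma voom 5. Of the 30 members, 22 were positive with a median Log2FC of 0.47, beside 53.8% positive and a median of 0.05 over all genes. Without the 4 members that passed the filter through the ONX-0914 libraries, 18 of 26 were positive, with a median of 0.33. Both ONX-0914 libraries lay above both DMSO libraries for 11 members, as in 20.8% of all genes, and below for 3 (Ifnar2, Nfkbia and Tnfaip3), as in 19.7% of all genes. For Ifnar1, Rela, Socs3 and Icam1, the mean of the DMSO libraries was below that of the controls, and their Log2FC between ONX-0914 and control was 0.35, 0.16, 0.48 and 0.37.

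**Figure D5:**
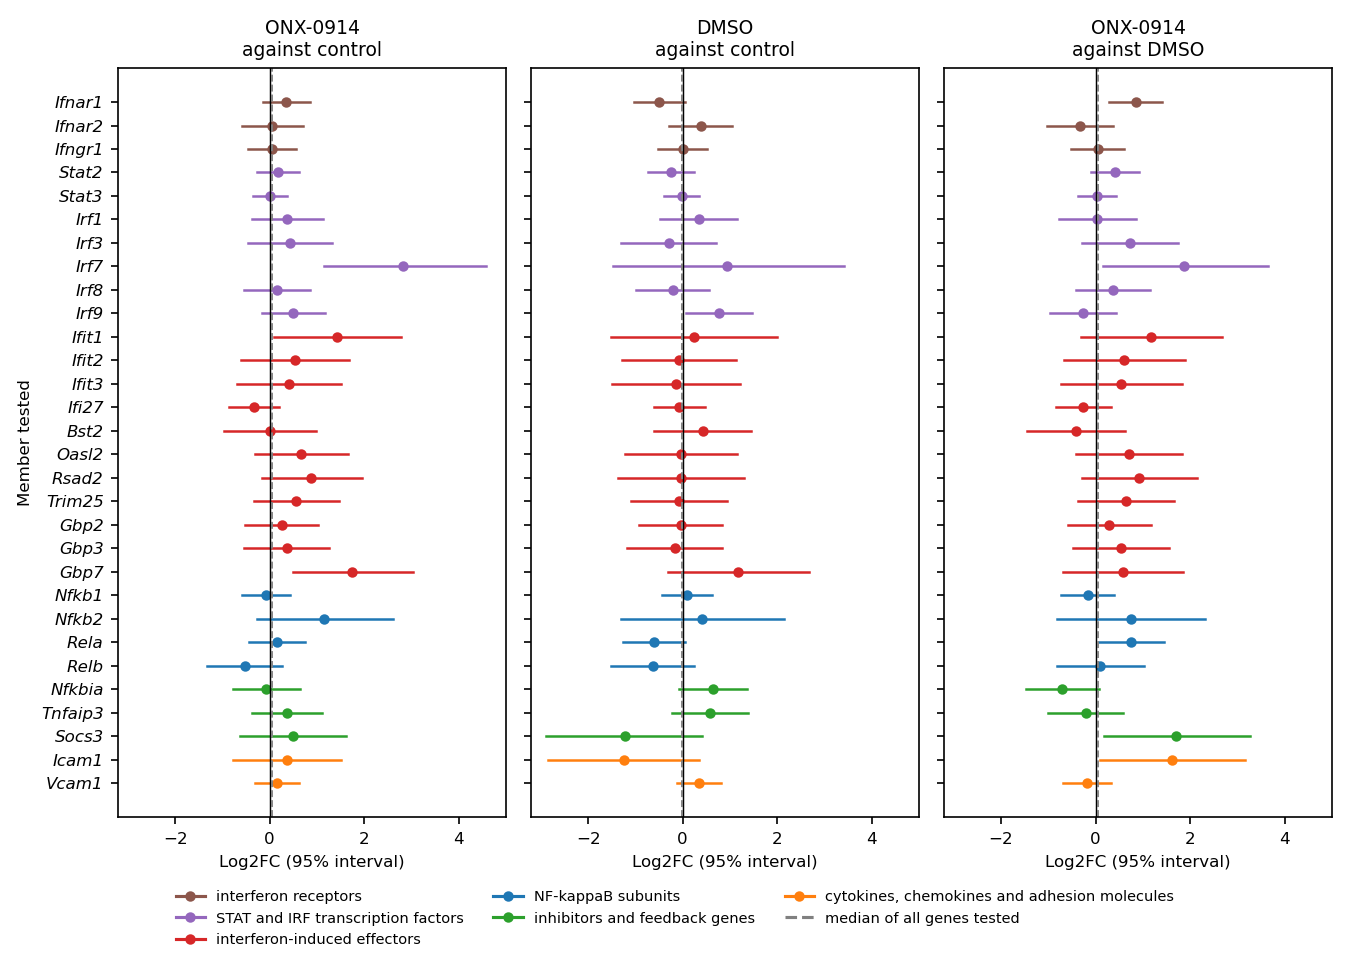
Log2FC (points) with its 95% interval (lines) for the 30 members tested in each of the 3 comparisons, coloured by role, with the median of all genes tested as a dashed line. Against control, 3 of the intervals of the ONX-0914 comparison lie above 0 (Irf7, Ifit1 and Gbp7), before any adjustment for the 13152 genes tested.

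The calls depended on the ONX-0914 libraries. Without ONX-0914 replicate 1, 7 of 32 members tested (21.9%) passed an edgeR FDR under 0.05 against control. Irf7, Gbp7, Ifnar1, Irf3 and Rsad2 were higher, and Ifit2 and Ifi27 lower, while 51.2% of all genes passed. Without ONX-0914 replicate 2, Ifit1 and Ifit2 passed, 2 of 31 members (6.45%), both higher, beside 19% of all genes. In these fits the lone ONX-0914 library is assumed to vary like the other groups. Against DMSO, 10 of 32 members passed without ONX-0914 replicate 1 (46% of all genes) and 2 of 31 without ONX-0914 replicate 2 (17% of all genes).

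Other genes of the same pathways were read from lists of related genes. Of 41 further interferon-stimulated genes, 22 were tested between ONX-0914 and control, 18 were higher, and the median Log2FC was 0.84. None passed an edgeR FDR under 0.05, the lowest FDR was 0.155, and 9 passed an unadjusted p under 0.05, all higher, beside 53.8% positive and 18.6% at that p over all genes. Mean levels were under 10 CPM for 18 of the 22, a range in which the median of all genes was 0.28 (under 5 CPM) and 0.29 (5 to 10 CPM). The filter leaned the same way here, and leaving out 6 genes that passed it through the ONX-0914 libraries gave 12 of 16 higher and a median of 0.58. Those 6 include Ifit3b, Trim30a, Gbp4 and Herc6, which are all among the 9 at an unadjusted p under 0.05. The count of 9 therefore leans toward genes high in the ONX-0914 libraries. The most abundant of them were Cmpk2, Lgals3bp and Parp12. Lgals3bp, which encodes a secreted glycoprotein, had 7.71 to 10.6 CPM in control, 11.3 and 14.3 in DMSO and 15.6 and 17.05 in ONX-0914 libraries, with a Log2FC of 0.85 against control for ONX-0914 (edgeR FDR = 0.155). Cmpk2 had 18.8 to 28.9 CPM in control and 28.7 and 24.7 in ONX-0914 libraries, and Parp12 had 9.98 to 12.5 and 14.6 and 8.72. In the same list the median was 0.15 between DMSO and control, with 13 of 22 higher, and 0.44 between ONX-0914 and DMSO, with 17 of 22 higher. Over all genes 49.5% and 53.8% were higher in these comparisons.

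The other lists held no call in any of the 3 comparisons. Of 18 further interferon signalling genes, 13 were tested and 10 were higher between ONX-0914 and control, with a median of 0.27, beside 53.8% and 0.05 over all genes. At an unadjusted p under 0.05, which 18.6% of all genes passed, 1 was higher and 2 lower, the latter Jak1 and Pias1 (edgeR FDR = 0.226 and 0.239). The higher gene was Tmem173, which passed the filter through the ONX-0914 libraries. Without it 9 of 12 were higher, with a median of 0.25. Among the most abundant, the kinase Jak1 had 202 to 208 CPM in control, 176 and 152 in DMSO and 131 and 168 in ONX-0914 libraries. The STAT inhibitor Pias1 had 94.1 to 104.9 CPM in control, 76.7 and 88.2 in DMSO and 76.8 and 72.6 in ONX-0914 libraries, while the IRF3 kinase Tbk1 had 52.8 to 65.2 CPM in control and 69.5 and 49.2 in ONX-0914 libraries. Of 25 further NF-kappaB pathway genes, 20 were tested and 14 were higher, with a median of 0.20, and 3 higher and 1 lower passed an unadjusted p under 0.05. Without 2 genes that passed the filter through the ONX-0914 libraries, 12 of 18 were higher, with a median of 0.10. Myd88, 1 of the 3 higher genes at that p, was among these 2. The most abundant were the deubiquitinase Cyld, the adaptor Traf3 and the kinase Ikbkb, with Log2FC values of -0.26, 0.27 and 0.03. Of 19 further cytokine and chemokine genes, 5 were tested with a median of -0.04. Among them the neuronal chemokine Cx3cl1 had 182 to 208 CPM in control and 158 and 625 in ONX-0914 libraries, Csf1 had 23.7 to 28.2 and 16.1 and 21.5, and the prostaglandin synthase Ptgs2 had 11.6 to 28.6 and 2.27 and 38.5. For Cx3cl1 and Ptgs2 the ONX-0914 libraries lay on opposite sides of all controls. Of 11 genes of IL-6 and STAT3 signalling, 8 were tested and 6 were higher, with a median of 0.54 beside 0.05 over all genes. At an unadjusted p under 0.05, 3 were higher and 2 lower, the latter Gfap and Jak1. Without Pim1, which passed the filter through the ONX-0914 libraries, 5 of 7 were higher, with a median of 0.52. Jak1 is in this list too, the astrocyte filament gene Gfap had 754 to 1344 CPM in control, 1064 and 1171 in DMSO and 803 and 449 in ONX-0914 libraries, and the receptor gene Il6st had 106 to 111 CPM in control and 167 and 97.0 in ONX-0914 libraries.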

How the data were processed

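RNA-seq counts of 7 hippocampal libraries were analysed. The authors deposited raw counts of reads per gene, 1 file per library, without normalization. Per the labels, directional single-end reads of 100 bases were processed with Trimmomatic 0.39, STAR 2.7.3a and featureCounts 2.00 on GRCm39, from RNA with a RIN of at least 8; the annotation and the strand setting are not given in the sources used here. Of the reads, 3.75% to 3.92% were ambiguous and 4.75% to 6.49% lay outside genes, and these stayed out of the library sizes. Symbols, exon lengths and exon overlaps came from GENCODE M21 (52083 of 55416 identifiers, 99.8% of counts).

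In R 4.3.3, edgeR 4.0.16 was used with filterByExpr over the 3 groups, TMM, and glmQLFit and glmQLFTest with 1 mean per group over all 7 libraries, followed by Benjamini-Hochberg adjustment over all genes tested. Log2FC uses a prior count of 0.125, and SE comes from the F statistic. Differences per library are on log2 CPM (prior count 2). The fit was tested on simulated data. Alternatives were DESeq2 1.42.0, limma 3.58.1 (voom), RLE size factors, total counts, other filters, the compared groups alone, mitochondrial genes left out, a larger prior count (2), a block for replicate number and leaving out each library. The earlier quasi-likelihood form was added after seeing the data. The members and lists were chosen with earlier results of these data known. Every member is named with its level; Log2FC with SE and FDR is given at an unadjusted p under 0.05. Of each other list the 3 genes with the highest mean CPM are named, and of each marker list the highest 2. Genes named for a left-out library, S100a8, S100a9, Wfs1, Bok, Tmem119, Itgam, P2ry12, Ifit3b, Trim30a, Gbp4, Herc6, Tmem173, Myd88 and Pim1 were named after their values were seen. The result of 1 marker gene is not reported here.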

Additional observations from a re-analysis of the deposited data

How the results depend on the processing

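No member passed the FDR threshold in any comparison under RLE size factors, total counts, DESeq2, limma voom, at least 10 counts in every library, the compared groups alone, mitochondrial genes left out, a prior count of 2 or the earlier quasi-likelihood form. Between ONX-0914 and control, DESeq2 gave no FDR for Irf7 and Ifit1, so it could not call them. Likewise, the filter of at least 10 counts in every library removed Irf7, Gbp7 and Ifit1 before testing. Without a filter on low counts 1 member passed between ONX-0914 and control (Irf7, FDR = 0.0174). Leaving out each library gave 0 to 7 members called between ONX-0914 and control, 0 to 10 between ONX-0914 and DMSO, and 0 between DMSO and control, with calls only where an ONX-0914 library was left out. The genes called between ONX-0914 and control numbered 15 in edgeR, 388 in DESeq2 and 578 without a filter, and 6, 238 and 297 between ONX-0914 and DMSO.

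The median Log2FC of the members between ONX-0914 and control, 0.36, was 0.51 with total counts, where the median of all genes moved from 0.05 to 0.19, 0.26 with limma voom and 0.18 with at least 10 counts in every library, and 0.26 to 0.37 when each library was left out. Between ONX-0914 and DMSO, 0.47 became 0.61 with total counts, 0.34 with limma voom, 0.56 without a filter, 0.074 with at least 10 counts in every library, 0.40 with the compared groups alone, and 0.25 to 0.48 when each library was left out. Between DMSO and control, -0.03 became -0.04 to 0.052 when each library was left out. With total counts 0 members lay below all controls in both ONX-0914 libraries. The cause of these differences was not tested, apart from the smaller number of members tested under the stricter filter (21).

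Deviations from the group mean in same-numbered libraries of different groups had correlations of -0.10 to 0.06. In a group of 2 libraries these deviations mirror each other, so the correlations cannot show whether the numbers pair the libraries. With a replicate block no member was called, and the medians were 0.31, 0.09 and 0.34 between ONX-0914 and control, DMSO and control, and ONX-0914 and DMSO. Depth limits Tnf, Il6, Ccl2 and Cxcl10, which had at most 3 reads in every library.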
